A study of Rattus norvegicus with 6 samples.

Results

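The interleukin-1 (IL-1) family genes described here were 9 of the 32623 genes in a table of RNA sequencing of rat myocardium. They were chosen by gene family, with earlier results of these data known. They comprised the ligands Il1a, Il1b, Il18 and Il33, the antagonist Il1rn, and the receptor chains Il1r1, Il1rap, Il1rl1 and Il1r2. All 9 were found by gene symbol, and all 9 were among the 13964 genes whose mean level over the 6 samples was at least 0.5 FPKM (a level scaled to transcript length and sequencing depth), the genes that entered the tests. Il1a, Il1rl1 and Il1r2 passed that filter through their ischemia samples, since all of their sham samples lay below it, so a higher level in ischemia was built into their passing.

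Myocardial tissue came from wild-type male rats in 2 groups of 3 samples. The treatment text, the same for every sample, describes anesthesia, ventilation and left thoracotomy, and does not say how far the sham operation went. In the ischemia group the left anterior descending coronary artery was tied, with the 30 min time given in the labels of both groups, and the sham group was labelled as sham. The labels state neither the age of the rats nor the part of the heart taken, and do not say that each sample was a separate rat, so the p-values measure the spread between these samples.

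IL-1 alpha and IL-1 beta bind the receptor encoded by Il1r1, which recruits the accessory chain encoded by Il1rap and signals through MyD88 and IRAK kinases to NF-kappa B. The pathway is restrained at the receptor by the IL-1 receptor antagonist, encoded by Il1rn, which occupies the receptor without signalling, and by the decoy receptor encoded by Il1r2, which binds IL-1 but lacks the signalling domain. IL-33 signals through the receptor ST2, encoded by Il1rl1, and IL-18 through a receptor of its own. In injured heart muscle, IL-1 is known as an early inflammatory signal of myeloid cells and IL-33 as a protein released from damaged cells. All values here are messenger RNA, and neither the proteins nor their cleavage were measured.

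In ischemia, Il1b, the antagonist Il1rn and the decoy receptor Il1r2 were higher than in sham, and the antagonist and the decoy had the larger fold changes. Il1b rose by 4.52 ± 0.85 (log2 fold change ± SE, n = 3 per group), Il1rn by 6.34 ± 0.80 and Il1r2 by 8.85 ± 1.52. These 3 of 9 members passed an adjusted p under 0.05 in edgeR's quasi-likelihood test with Benjamini-Hochberg adjustment over all tested genes, and 0 passed it lower. Over all tested genes 5.18% were called higher and 1.53% lower, 6.71% in either direction. No member was lower at an unadjusted p under 0.05, and none by DESeq2.

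The median log2 fold change of the 9 members was 2.24, against -0.0015 over all tested genes. Of the 3 members whose rise was built in by the filter, 1 was called, and of the other 6, 2 were called, with a median of 1.79. The FPKM values of sham and ischemia did not overlap for 6 members, all of them higher in ischemia, a pattern shown by 23.6% of all tested genes. DESeq2's Wald test called 6 members higher, with 14.8% of all genes called higher by it. By a second criterion, a log2 fold change above 2 with an unadjusted p under 0.01, 3 members qualified, against 3.31% of all genes. Il1r2 and Il1rl1, whose rise was built in by the filter, were among the 6 members without overlap and the 6 called by DESeq2. Il1r2 was also among the 3 past the second criterion.

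The edgeR calls needed nearly all samples. When sham replicate 1, 2 or 3 or ischemia replicate 3 was left out, no tested gene passed the adjusted threshold and the members called fell to 0, with 4, 5, 5 and 6 members, and 3090, 3809, 3255 and 3020 genes in all, at an unadjusted p under 0.05. With all 6 samples, 6 members and 32.4% of all tested genes had an unadjusted p under 0.05. Without ischemia replicate 1 there were 5 members called, with 1490 genes higher and 1115 lower in all. Without ischemia replicate 2 the 3 calls remained, with 462 genes higher and 109 lower in all. With all 6 samples 723 genes were higher and 214 lower.

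**Figure D1:**
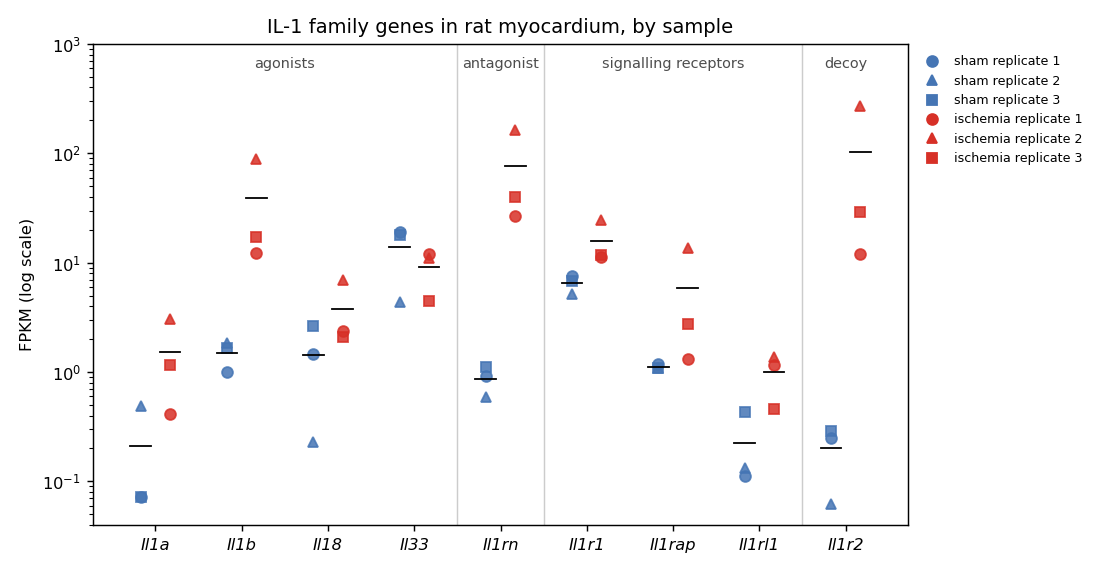
FPKM of the 9 IL-1 family genes on a log scale, 1 point per sample, with sham in blue and ischemia in red, the replicate number given by the marker, and a black line at the mean of each group of 3. The points of Il1b, Il1rn and Il1r2 lie apart between groups, with ischemia replicate 2 highest, while those of Il1a, Il18 and Il33 overlap.

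The sequences just before the transcription starts are shown for Il1b and Il1rn, as ligand genes that rose together. Those of the receptor genes Il1r1 and Il1rap are shown so that the starts can be compared. Both receptor genes missed the adjusted threshold in edgeR and passed it in DESeq2. Each line holds the 140 bases before the RefSeq start in the rat assembly GRCr8, 5′ to 3′ on the strand of the gene. Capitals mark every match, on either strand, to TATAA, to the AP-1 motif TGANTCA, to the PU.1 core GAGGAA or to the kappa B consensus. In Il1rn the capitals hold a pair of overlapping TATAA matches, one on each strand.
Il1b, chr3:137036582-137036721, minus strand: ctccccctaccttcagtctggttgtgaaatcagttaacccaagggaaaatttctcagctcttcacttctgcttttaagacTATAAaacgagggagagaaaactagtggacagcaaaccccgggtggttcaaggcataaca
Il1rn, chr3:27520182-27520321, plus strand: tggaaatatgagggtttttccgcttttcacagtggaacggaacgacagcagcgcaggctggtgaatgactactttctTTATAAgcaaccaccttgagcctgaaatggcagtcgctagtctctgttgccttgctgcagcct
Il1r1, chr9:50034243-50034382, plus strand: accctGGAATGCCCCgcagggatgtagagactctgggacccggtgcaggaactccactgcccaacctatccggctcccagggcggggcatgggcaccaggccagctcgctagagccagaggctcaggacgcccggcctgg
Il1rap, chr11:87704343-87704482, minus strand: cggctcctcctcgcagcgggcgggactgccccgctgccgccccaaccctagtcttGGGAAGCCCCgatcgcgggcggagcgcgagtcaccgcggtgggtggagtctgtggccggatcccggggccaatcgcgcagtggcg

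Over the 250 bases before each start, TATAA was found for Il1b from 60 and for Il1rn from 62 bases before the start, and for neither Il1r1 nor Il1rap. The kappa B consensus was found for Il1r1, from 135 bases before the start, and for Il1rap, from 85 bases before the start printed, both on the opposite strand. The table held a window for 8 of the 9 members and none for Il1r2. These 8 members had 10 windows, since Il33 and Il1rap each had 2, and the windows of Il1rap overlap. TATAA was present in 6 of the 10 windows (those of Il1a, Il1b, Il18, Il1rn and Il1rl1, and 1 of Il33) and in 24.0% of all 33469 windows. The kappa B consensus was present in 3 of the 10, where both Il1rap windows hold the same match, and in 3.54% of all windows. TGANTCA and GAGGAA were each present in the window of Il1a alone, against 6.34% and 23.3% of all windows. A match describes letters only, and nothing was measured of binding at these sites.

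Il1b encodes the secreted agonist IL-1 beta, made as an inactive precursor. The table places it on chromosome 3 at 121876263 to 121882726 on the minus strand. The build of these gene coordinates is not given in the sources used here. Il1b was at 1.01, 1.84 and 1.64 FPKM in sham replicates 1 to 3, and at 12.3, 88.0 and 17.4 FPKM in ischemia replicates 1 to 3. The lowest ischemia sample exceeded the highest sham sample by 6.66-fold, and ischemia replicate 2 was 5.94-fold the mean of the other ischemia samples. The adjusted p was 0.0397 in edgeR and 6.30e-08 in DESeq2. Left-out samples moved the log2 fold change between 3.23, without ischemia replicate 2, and 4.93, without ischemia replicate 1. The adjusted p was 0.0309 without ischemia replicate 2 and reached 0.162 without sham replicate 1.

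Il1a, which encodes the agonist IL-1 alpha and lies 40.176 kb from Il1b in the table, at 121825412 to 121836086 of chromosome 3, was scarce in sham. Its FPKM was 0.0715, 0.487 and 0.0714 in sham and 0.418, 3.03 and 1.16 in ischemia. Sham replicate 2 was above ischemia replicate 1, so the groups overlapped. The sham values rest on 7, 51 and 7 counts and the ischemia values on 45, 291 and 106. The log2 fold change was 2.58 ± 1.11, with an adjusted p of 0.163 in edgeR and 0.0705 in DESeq2. It was 1.73 without ischemia replicate 2 and 4.33 without sham replicate 2 (edgeR adjusted p = 0.366 and 0.0928).

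Il18, another agonist made as a precursor, lies on chromosome 8 at 54993859 to 55016299 on the plus strand. It was at 1.48, 0.227 and 2.63 FPKM in sham and 2.36, 6.91 and 2.09 FPKM in ischemia. Sham replicate 2 was far below the other samples and ischemia replicate 2 above them, and the groups overlapped. The log2 fold change was 1.35 ± 0.83 (edgeR adjusted p = 0.293), 0.67 without ischemia replicate 2 and 2.06 without sham replicate 3.

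Il33 was the only member whose fitted fold change was below 0. It encodes a nuclear cytokine of structural cells and lies on chromosome 1 at 248132090 to 248147029 on the plus strand. Its FPKM was 19.0, 4.39 and 17.9 in sham and 12.0, 11.1 and 4.46 in ischemia. Sham replicate 2 and ischemia replicate 3 were both low, and the groups overlapped. The log2 fold change of -0.62 ± 0.55 had an adjusted p of 0.454 in edgeR. Il33 stayed between -1.01 and -0.31 in all 16 alternative fits. Il33 was higher in the samples with more atrial RNA within each group: the summed CPM (counts scaled to library size) of 5 atrial cardiomyocyte markers was 47954, 398 and 35822 in sham and 9271, 1733 and 1221 in ischemia. Its part in the values of Il33 was not tested.

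The antagonist gene Il1rn had the smallest adjusted p of the 9 members. It lies on chromosome 3 at 1452644 to 1468614 on the plus strand. Il1rn was at 0.916, 0.596 and 1.11 FPKM in sham and at 26.7, 164.7 and 40.2 FPKM in ischemia. Every ischemia sample was above every sham sample, with a gap of 24.1-fold between the nearest pair. The mean was 0.872 ± 0.258 FPKM in sham and 77.2 ± 76.1 FPKM in ischemia (SD, n = 3), an 88.5-fold difference of means. The SD in ischemia was nearly as large as the mean because replicate 2 was 4.92-fold the mean of the other ischemia samples. The adjusted p was 0.0272 in edgeR and 8.99e-20 in DESeq2. Without ischemia replicate 2 the log2 fold change of Il1rn was 5.25 (adjusted p = 0.0157), and without sham replicate 1 the adjusted p was 0.157.

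Among the signalling chains, Il1r1, the receptor for both IL-1 ligands, was the most abundant in sham. It lies on chromosome 9 at 46962288 to 47036670 on the plus strand. Its FPKM in sham was 7.52, 5.14 and 6.87, and its FPKM in ischemia was 11.2, 24.4 and 11.8. The ischemia samples were all above the sham samples, with a gap of 1.48-fold between the nearest pair. The log2 fold change of 1.18 ± 0.30 missed the threshold in edgeR (adjusted p = 0.0617) and passed it in DESeq2 (adjusted p = 0.00483). Of the 6 fits that left out a sample, 1 passed in edgeR, without ischemia replicate 1, at 1.35 (adjusted p = 0.0335). Without ischemia replicate 2 it was 0.79 (adjusted p = 0.0601), and the adjusted p reached 0.177 without sham replicate 1.

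Il1rap, the co-receptor shared by IL-1 and IL-33 receptors, lies on chromosome 11 at 77463954 to 77593207 on the minus strand. Il1rap was at 1.17, 1.09 and 1.09 FPKM in sham and at 1.31, 13.6 and 2.72 FPKM in ischemia. Ischemia replicate 1 was only 1.11-fold above the highest sham sample, and replicate 2 was 6.75-fold the mean of the other ischemia samples. The log2 fold change was 2.24 ± 0.81 (edgeR adjusted p = 0.121, DESeq2 adjusted p = 0.0216). Without ischemia replicate 2 it was 0.81 (edgeR adjusted p = 0.250), and without ischemia replicate 1 it was 2.69 (edgeR adjusted p = 0.0383).

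Il1rl1, the IL-33 receptor gene, lies on chromosome 9 at 47134034 to 47182170 on the plus strand. It was at 0.113, 0.133 and 0.428 FPKM in sham and at 1.15, 1.38 and 0.458 FPKM in ischemia. Sham replicate 3 and ischemia replicate 3 nearly met, 1.07-fold apart. The log2 fold change was 2.06 ± 0.65 (edgeR adjusted p = 0.0929, DESeq2 adjusted p = 0.0147). In edgeR it was 2.78 without sham replicate 3 and 1.74 without sham replicate 1 (adjusted p = 0.140 and 0.226).

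The decoy receptor gene Il1r2 had the largest fold change of the 9 members. It lies on chromosome 9 at 46840992 to 46881264 on the plus strand. Il1r2 was at 0.251, 0.0624 and 0.288 FPKM in sham, from 28, 8 and 31 counts, and at 11.9, 270.4 and 28.9 FPKM in ischemia, from 1412, 29176 and 2952 counts. Every ischemia sample was above every sham sample, the nearest pair being 41.3-fold apart, and ischemia replicate 2 was 13.3-fold the mean of the other ischemia samples. The adjusted p was 0.0361 in edgeR and 7.54e-16 in DESeq2. Without ischemia replicate 2 the log2 fold change of Il1r2 was 6.65 (adjusted p = 0.0234), and without sham replicate 1 the adjusted p was 0.160.

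**Figure D2:**
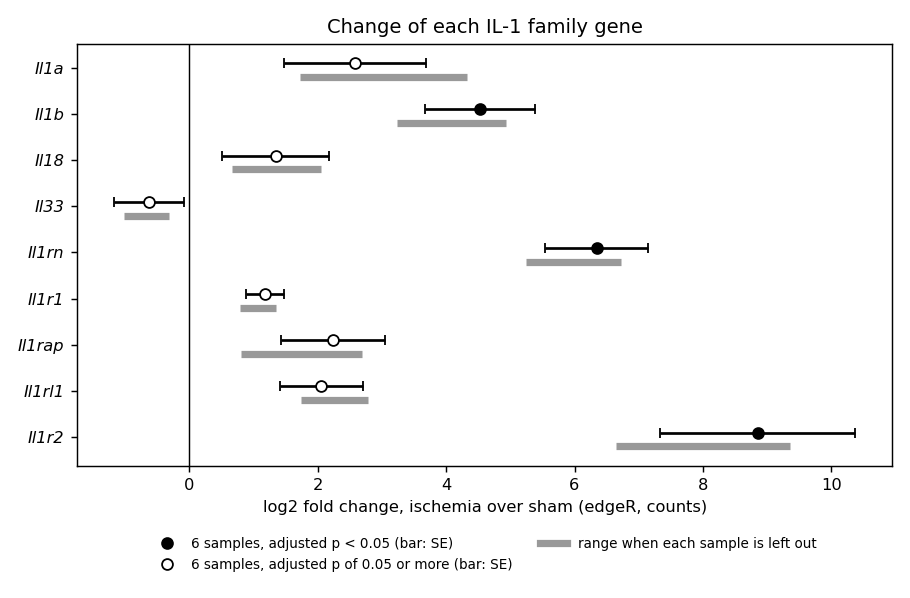
Log2 fold change of ischemia over sham for each member (x axis, edgeR on counts), with bars of 1 SE, filled points where the adjusted p was under 0.05, and grey bars for the range when each of the 6 samples was left out in turn. Il1r2, Il1rn and Il1b have filled points, and no grey bar crosses 0.

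The order of the levels, compared per length as FPKM, also differed between the groups. In sham the means ran from Il33 (13.8 FPKM) and Il1r1 (6.51) through Il1b (1.50), Il18 (1.44), Il1rap (1.12) and Il1rn (0.872) down to Il1rl1 (0.225), Il1a (0.210) and Il1r2 (0.201). Of the neighbours in that order, Il1r1 and Il1b, and Il1rn and Il1rl1, did not overlap in their samples, and all other neighbours did. In ischemia the order began with Il1r2 (103.7 FPKM), Il1rn (77.2) and Il1b (39.2), followed by Il1r1 (15.8), Il33 (9.18), Il1rap (5.88), Il18 (3.79), Il1a (1.53) and Il1rl1 (0.998), and every pair of neighbours overlapped. The first place of Il1r2 in ischemia came from replicate 2, since Il1rn was above Il1r2 in replicates 1 and 3.

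The balance of antagonist and agonist was compared as the ratio of FPKM within each sample. The ratio of Il1rn to Il1b was 0.909, 0.323 and 0.673 in sham and 2.17, 1.87 and 2.32 in ischemia. Il1b transcripts were thus the more abundant in every sham sample and Il1rn transcripts in every ischemia sample. The mean log2 ratio was -0.78 ± 0.77 in sham and 1.08 ± 0.16 in ischemia (SD, n = 3), a difference of 1.86 (two-sided exact permutation p = 0.1, the smallest that 3 samples against 3 allow). It was 1.43 without sham replicate 2 and 2.18 without sham replicate 1. Ischemia replicate 2, which had the highest level of each gene, did not stand apart in this ratio.

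The ratio of the decoy Il1r2 to the signalling receptor Il1r1 in sham was 0.0334, 0.0121 and 0.0420, and in ischemia it was 1.07, 11.1 and 2.44. Transcripts of the signalling receptor exceeded those of the decoy by 23.8- to 82.3-fold in sham, and those of the decoy were the more abundant in each ischemia sample, in replicate 1 only slightly. The log2 difference was 6.90 (exact permutation p = 0.1), 5.97 without ischemia replicate 2 and 7.66 without ischemia replicate 1. Il1r2 passed the filter through its ischemia samples, so a higher ratio in ischemia was partly built in. Its sham values rest on 28, 8 and 31 counts.

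The ratio of the IL-33 receptor Il1rl1 to its ligand Il33 in sham was 0.00594, 0.0302 and 0.0239, and in ischemia it was 0.0962, 0.125 and 0.103. The ligand was the more abundant transcript in every sample, by 33.1- to 168.3-fold in sham and by 8.03- to 10.4-fold in ischemia. Il1rl1 passed the filter through its ischemia samples, so a higher ratio in ischemia was partly built in. The log2 difference was 2.72 (exact permutation p = 0.1), 1.99 without sham replicate 1 and 3.17 without sham replicate 2. With 1 added to each FPKM it fell to 1.10 and the groups overlapped (exact permutation p = 0.3), whereas the other ratios kept p = 0.1 in that setting. The 3 exact tests cannot pass 0.05 at this number of samples, with or without adjustment.

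**Figure D3:**
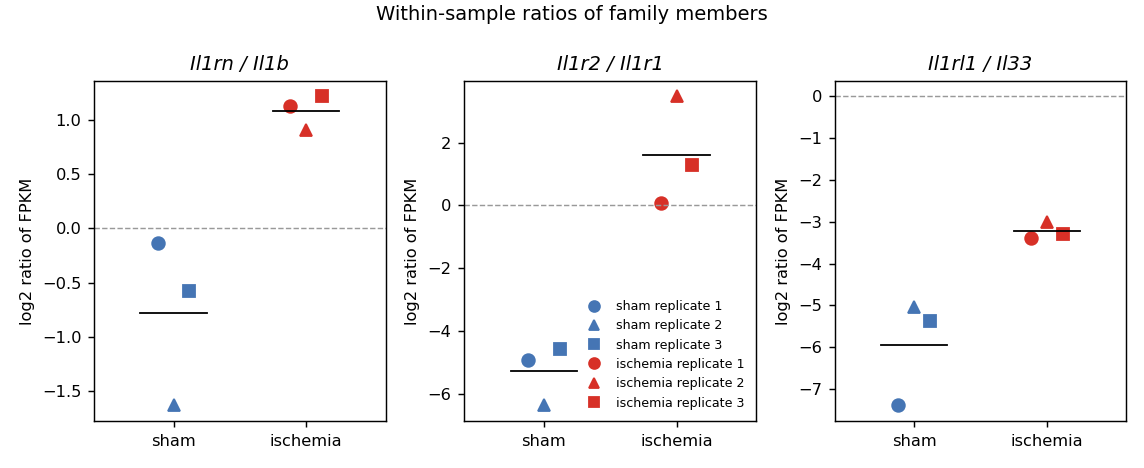
Log2 of the within-sample FPKM ratios Il1rn to Il1b, Il1r2 to Il1r1 and Il1rl1 to Il33 (y axes), 1 point per sample, with black lines at the group means and a dashed line where both transcripts are equal. The 3 ischemia samples lie above the 3 sham samples in each panel, and above the dashed line for Il1rn to Il1b and Il1r2 to Il1r1.

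In the table's coordinates Il1r2, Il1r1 and Il1rl1 lie in a receptor gene cluster of chromosome 9 that spans 417.512 kb from the start of Il1r2 to the end of Il18rap and also holds Il1rl2 and Il18r1, all 6 receptor genes on the plus strand. The end of Il1r2 and the start of Il1r1 are 81.023 kb apart, yet their log2 fold changes were 8.85 and 1.18. Il18rap, which encodes the accessory chain of the IL-18 receptor, had 0.392, 0.317 and 0.457 FPKM in sham and 0.990, 7.45 and 1.23 FPKM in ischemia. Its log2 fold change was 2.91 ± 0.79 (edgeR adjusted p = 0.0719). Il18r1 and Il1rl2 were below the filter. Of the cluster, Il1r2 alone passed the adjusted threshold in edgeR.

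Of 12 other ligands, receptors and binding proteins, 5 had no count in any sample, among them Il36a and Il36g, and 3 passed the filter. None of the 3 was called in edgeR, 2 had an unadjusted p under 0.05, against 32.4% of all tested genes, and DESeq2 called the same 2 higher, against 14.8%. These were Il18rap, whose sham values were all below 0.5 FPKM, and Sigirr, which encodes an inhibitory receptor of the family and had a log2 fold change of 1.07 (edgeR adjusted p = 0.0590). Il18bp, whose product neutralizes IL-18, was at 17.3, 16.6 and 11.7 FPKM in sham and 23.7, 11.5 and 8.03 FPKM in ischemia, and its log2 fold change was -0.18 (adjusted p = 0.794). Il18rap, Sigirr and Il18bp are named as all the tested genes of that list.

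Of 21 genes of inflammasomes and proteases that process IL-1 ligands, 17 were tested and 1 was called higher, Nlrc4, which encodes an inflammasome sensor (log2 fold change 3.83 ± 0.84, adjusted p = 0.0494). That is 5.88% of the 17, near the 5.18% of all tested genes called higher. Nlrc4 passed the filter through its ischemia samples, and the count of called genes was above 0 in 4 of 16 alternative fits. The median of the 17 was 0.82. Nlrp3, the sensor most often tied to IL-1 beta release, was at 0.506, 0.463 and 1.07 FPKM in sham and 1.66, 10.9 and 3.20 FPKM in ischemia, with a log2 fold change of 2.84 ± 0.72 (edgeR adjusted p = 0.0623, DESeq2 adjusted p = 0.00055). Casp1, the protease that cleaves the precursors of IL-1 beta and IL-18, overlapped between groups at 0.88 ± 0.48 (adjusted p = 0.244). Gsdmd, which encodes the pore protein of release, had a log2 fold change of -0.0011 (adjusted p = 0.997). Nlrp3, Casp1 and Gsdmd were chosen after their values were seen.

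Among 28 genes of receptor-proximal signalling and its feedback, 27 were tested, 4 were higher and 0 lower, 14.8% against 5.18% of all tested genes called higher, with a median of 0.67. Myd88, the adaptor of IL-1 receptors and Toll-like receptors, was at 6.59, 5.65 and 7.28 FPKM in sham and 24.9, 42.4 and 21.9 FPKM in ischemia, a log2 fold change of 2.09 ± 0.25 (adjusted p = 0.0272). The kinase gene Irak4 rose by 1.30, the feedback ribonuclease gene Zc3h12a by 1.22 and the NF-kappa B subunit gene Relb by 1.16, with adjusted p of 0.0361, 0.0492 and 0.0351. DESeq2 called 10 of the 27 higher, where it called 14.8% of all genes higher.

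Of 26 genes that textbooks list as induced by IL-1, 24 were tested, 15 were higher and 0 lower, against 5.18% of all genes called higher, and the median log2 fold change was 5.42. Of the 24, 9 had every sham value below 0.5 FPKM and passed the filter through ischemia, so their rise was built in, and 6 of these were called. Among the other 15, 9 were called higher, with a median of 3.84. The list is not specific to IL-1, since other cytokines and Toll-like receptors induce the same genes, and it was drawn up with results of these data known. The 4 called genes with the highest fitted fold changes, Csf3, Cxcl3, Cxcl2 and Ccl20, were all among those whose rise was built in. Csf3, which encodes the growth factor G-CSF, had no count in sham against 80, 640 and 85 counts in ischemia. Against a floor of 3 counts per sham sample it was at least 81.3-fold higher, a bound that does not place it above the others. The chemokine genes Cxcl3, Cxcl2 and Ccl20 rose by 10.04, 8.96 and 7.56 on the log2 scale. The smallest changes among the called genes were those of the adhesion molecule gene Icam1 (1.32), the acute-phase gene Hp (3.20) and the endothelial selectin gene Sele (3.56). The cytokine gene Il6 did not pass the threshold in edgeR (9.25 ± 2.33, adjusted p = 0.0613). It had 0, 8 and 7 counts in sham, and 1.90, 131.0 and 2.34 FPKM in ischemia. The rise of Il6 was also built in, since all of its sham values were below 0.5 FPKM. Il6 was chosen after its values were seen.

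**Figure D4:**
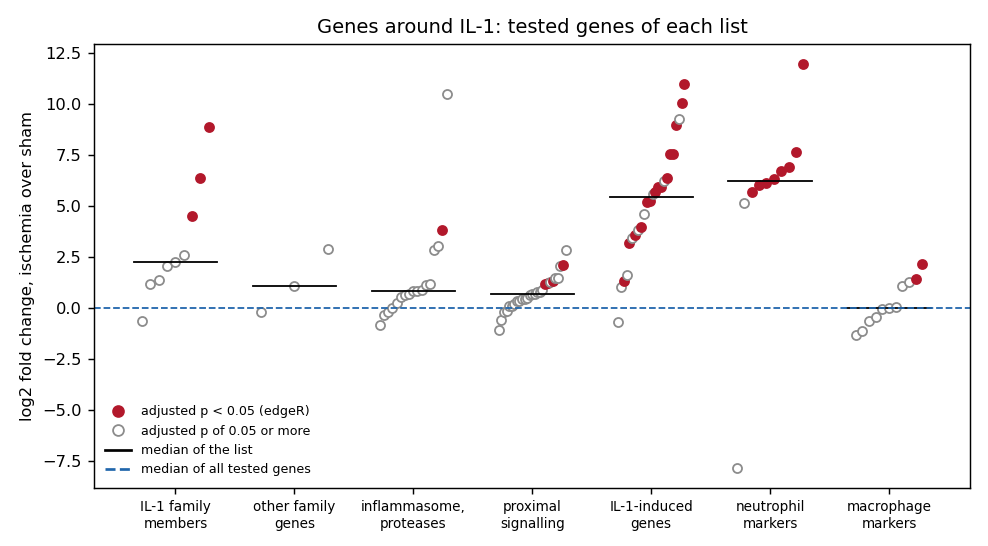
Log2 fold change of ischemia over sham for the tested genes of 7 lists (y axis), 1 point per gene, red where the edgeR adjusted p was under 0.05, with a black line at each median and a dashed line at the median of all tested genes. The IL-1-induced genes (median 5.42) and neutrophil markers (6.22) lie highest, and macrophage markers (median 0.01) lie on both sides of 0.

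The summed markers of neutrophils and of monocytes moved with the members that rose. Of 10 tested neutrophil markers 8 were called higher by edgeR, with a median of 6.22. Over all tested genes 5.18% were called higher, the share for each list of this paragraph. The summed CPM of the neutrophil markers ranged from 7.18 to 17.2 in sham and from 302 to 2161 in ischemia. Of the 10, 6 had every sham value below 0.5 FPKM, so that their rise was built in, and 5 of these were called, as were 3 of the other 4. Of the 12 markers, Fpr1, Ngp and Retnlg had no count in any sham sample. The granule gene Mpo went against the list, with 0, 119 and 808 counts in sham and 0, 4 and 0 counts in ischemia, a log2 fold change of -7.82 that did not pass the threshold (edgeR adjusted p = 0.0993). Of 8 listed monocyte markers only 5 matched a gene symbol, and these 5 were tested. Of the 5, 3 were higher, with a median of 3.52 and sums of 163 to 277 CPM in sham and 1130 to 6418 CPM in ischemia. Of 11 tested macrophage markers 2 were higher, with a median of 0.01 over changes in both directions, from -1.33 to 2.17. In edgeR 7 had an unadjusted p under 0.05, against 32.4% of all tested genes. DESeq2 called 4 higher and 2 lower, against 2071 and 1742 of all tested genes. The macrophage sums were 373 to 448 CPM in sham and 422 to 628 CPM in ischemia. In bulk tissue a change in the number of cells of a type and a change in RNA per cell cannot be told apart, and the part of these cells in the values of Il1b, Il1rn and Il1r2 was not tested.

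Each member was also set beside 85 tested cell type markers by Pearson correlation of log2 CPM over the 6 samples, which all share the split into sham and ischemia, so the values describe these samples only. The marker most like Il1b was the neutrophil collagenase gene Mmp8 (r = 0.999), which was also the most like Il1a (0.891). Il1r2 was most like Lyz2 (0.995) and Il1rn most like Fcnb (0.994), both from the monocyte list, and Il1rap was most like Plac8 of the same list (0.947). Il1r1 was most like the neutrophil chemokine receptor gene Cxcr2 (0.990). Il1rl1 was most like the macrophage scavenger receptor gene Cd163 (0.957), Il18 like the platelet factor gene Pf4 (0.914) and Il33 like the atrial peptide gene Nppa (0.877).

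**Figure D5:**
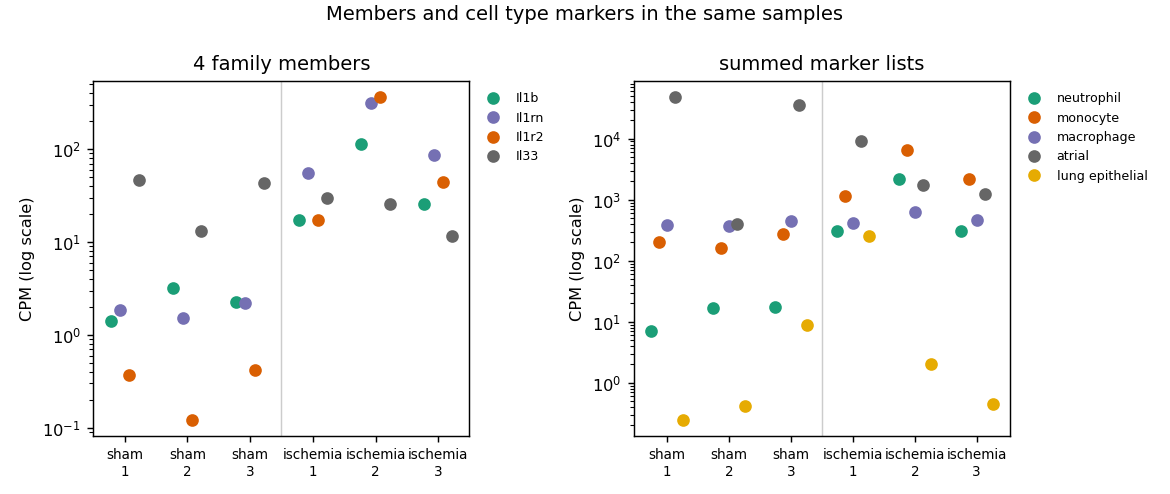
CPM on a log scale in the 6 samples, for Il1b, Il1rn, Il1r2 and Il33 (left) and for the summed markers of 5 cell types (right). Ischemia replicate 2 is the highest sample for Il1b, Il1rn, Il1r2 and for the neutrophil and monocyte sums, while atrial markers are highest in sham replicates 1 and 3 and lung epithelial markers in ischemia replicate 1.

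The samples held 68529126 to 79591989 counts each, with 15.4% to 21.4% from the mitochondrial genome. Libraries of 1 group also differed from each other. Atrial markers ran from 398 to 47954 CPM within sham, ventricular markers from 903 to 11862 CPM within sham, and 5 lung epithelial markers summed to 253 CPM in ischemia replicate 1 against at most 8.84 CPM elsewhere. Other marker sums differed between the groups without overlap. The cardiomyocyte markers summed to 52612 to 89240 CPM in sham and 16353 to 41309 CPM in ischemia, lowest in ischemia replicate 2, where 8 of the 9 members, Il33 excepted, had their highest ischemia value. The fibroblast markers summed to 1512 to 4059 CPM in sham and 725 to 1348 CPM in ischemia, and the mesothelial markers to 103 to 170.1 CPM in sham and 13.6 to 67.2 CPM in ischemia. The part of these differences in the results was not tested. No tested mast cell, endothelial, fibroblast or cardiomyocyte marker was called in edgeR, with 1 of 5, 2 of 8, 3 of 7 and 3 of 7 at an unadjusted p under 0.05, against 32.4% of all tested genes. DESeq2, which called 2071 genes higher and 1742 lower in all, called 1 mast cell marker lower, 1 endothelial marker lower, 1 fibroblast marker higher and 2 lower, and 3 cardiomyocyte markers lower. Of 10 tested lymphoid markers, 7 had a positive log2 fold change, with a median of 0.75, and edgeR called 1 higher (Cd8a, 2.17, adjusted p = 0.027) and 1 lower (Cd4, -0.996, adjusted p = 0.048). Of 3 tested platelet markers, with a median of -0.35, edgeR called 1, lower (Gp1bb, -5.41, adjusted p = 0.041), while Pf4 had 1.20 (adjusted p = 0.135). Beside the lymphoid and platelet lists, edgeR called 5.18% of all tested genes higher and 1.53% lower.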

How the data were processed

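RNA sequencing of rat myocardium, 3 sham and 3 ischemia samples, was analysed from the authors' table. The authors deposited a whole-number read count and an FPKM value per gene and sample, with genes without reads set to an FPKM of 0.0001. The labels name a stranded total RNA kit, and the submitters' processing notes name STAR and HTSeq. Their versions and the genome build are not given in the sources used here.

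Genes entered the tests at a mean FPKM of 0.5 or more (13964 genes), and their counts were scaled by TMM and tested with edgeR 4.0.16 (quasi-likelihood, Benjamini-Hochberg, adjusted p under 0.05) in R 4.3.3, without a replicate block. Fold changes are ischemia over sham. CPM uses the scaled library sizes, and at this depth 3 counts correspond to 0.0371 to 0.0459 CPM, which covers counting error only. Ratios used FPKM within a sample and a two-sided exact permutation test. Alternatives were DESeq2 1.42.0, limma 3.58.1 on FPKM with pseudocounts of 0.1 and 1, other scalings and filters, a replicate block, and each sample left out. Of these fits, only edgeR with TMM scaling and no block was tested on simulated data. Replicate numbers come from the titles; same-numbered samples did not deviate together.

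The members and all gene lists were chosen with earlier results of these data known. Of 200 list entries 191 matched a gene symbol. Named were all members, up to 4 highest and 3 lowest called genes of each pathway list, and the marker most correlated with each member. Outside that rule, Il36a, Il36g, Il18bp, Il18rap, Sigirr, Nlrp3, Casp1, Gsdmd, Il6, Mpo, Fpr1, Ngp, Retnlg, Cd8a, Cd4 and Gp1bb were chosen after their values were seen. Promoter sequences are RefSeq's, assembly GRCr8, and hold 250 bases before each start.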

Additional observations from a re-analysis of the deposited data

How the results depend on the processing

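The 9 members' fold changes gave 140 values over the alternatives. Of these 120 kept direction and side of the threshold, 15 lost the call, 5 gained it and 0 changed sign, and the 3 ratios kept their sign in all 9 alternatives each, Il1rl1 to Il33 at 1.10 (exact permutation p = 0.3) with a pseudocount of 1. No replicate pairing was seen (mean correlation of same-numbered deviations -0.115, other numbers 0.0553). With the replicate block, genes higher, genes lower, members higher, and processing, signalling and target genes called were all 0 in edgeR, with 3349 genes and 5 members at an unadjusted p under 0.05. The block left the log2 fold changes of Il1b, Il1rn and Il1r2 at 4.09, 5.91 and 7.56.

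With DESeq2 there were 2071 genes higher, 1742 lower, 6 members higher, 5 members past a log2 fold change of 2 and p of 0.01, and 2 other family, 3 processing and 10 signalling genes called. Library totals alone gave 83 genes lower and no filter gave 93. Processing genes called were 0 with library totals only, no filter, a mean FPKM of at least 5, robust estimation and limma at either pseudocount, and other family genes called were 1 with the stricter filter and with limma at either pseudocount.

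Leaving out each sample gave 0 to 1490 genes higher, 0 to 1115 lower, 0 to 5 members higher, 3 to 4 members past the second criterion, and 0 to 2 other family, 0 to 3 processing, 0 to 8 signalling and 0 to 20 target genes called. The zeros for all genes came without sham replicate 1, 2 or 3 or ischemia replicate 3, where 3020 to 3809 genes had an unadjusted p under 0.05, and the cause was not tested. In sham Il1a rested on 7 to 51 counts per sample and Il1r2 on 8 to 31.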
